A study of Mus musculus with 36 samples.

Results

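Ebf1 and Pax5 encode the transcription factors that specify the B lineage and then hold cells to it, and the chromatin around both genes was followed here by ATAC-seq (assay for transposase-accessible chromatin with sequencing) through 8 sorted fractions of mouse hematopoietic stem and progenitor cells (HSPCs). The peaks of the 36 libraries were joined wherever they shared 1 bp or more, which gave 105005 regions, and a region was given to the gene whose protein-coding transcription start site (TSS) lay nearest to its centre. This gave 22 regions to Ebf1 and 6 to Pax5, 28 in all. A region is named below by its gene and the distance of its centre from the TSS, with plus for the direction of transcription.

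The fractions were hematopoietic stem cells (HSCs) and multipotent progenitors of 4 kinds, MPP1 to MPP4, the last of them primed for the lymphoid fate. The committed fractions were common lymphoid progenitors (CLPs), progenitors of granulocytes and macrophages (GMPs) and those of megakaryocytes and erythrocytes (MEPs). Each was sorted from the bone marrow of untreated, wild-type C57BL/6 mice, female per the study's methods, aged 10 weeks (young) or 20 months (aged). There were 4 HSC libraries of each age and 2 of each age from the rest, all made from 20000 cells. The labels give the CLP sort as IL-7+, lineage-negative, Sca-1 low and c-Kit low, the antibody in the methods being against the interleukin-7 receptor alpha chain, and the lineage antibodies listed in the methods include B220, which marks B cells. The study calls the libraries of a group biological replicates, but marrow was pooled before sorting and the sources do not say that they came from separate animals, so p-values measure only the spread between these libraries, which may be technical.

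The number of peaks differed widely between fractions, although reads had been brought to 1 common number per library. MEP libraries held 9581 to 11041 peaks, GMP libraries 52576 to 63288, CLP libraries 27117 to 34205, and the remaining libraries 27087 to 40157. Of the markers chosen for the sorted fractions, only those of GMPs set their fraction apart by the number of regions called, with 17 to 18 of 19 regions in GMP libraries and 0 to 7 in all others. Of 26 regions at CLP markers, CLP libraries had 10 to 13 called and GMP libraries 15 to 18. Of 9 regions at MEP markers, MEP libraries had 3 called and GMP libraries 4 to 6. Of 99 regions at HSC markers, HSC libraries had 24 to 40 called, MPP1 libraries 26 to 38 and GMP libraries 24 to 36. Some single regions were more selective. Among CLP markers, the only region of Ly6d, an early B-lineage surface protein, was called in 4 of 4 CLP libraries and in no other library, and the TSS of Il7r, the interleukin-7 receptor gene, was called in all 4 libraries each of MPP4, GMPs and CLPs. Of the other CLP markers, Flt3 had a mean of 4 regions called in CLP libraries and 6.75 in GMP libraries. Dntt had 4.75 and 6.5, and Rag1 and Rag2 had no region. Of 11 regions at markers of committed B cells, CLP libraries had 1 to 4 called and GMP libraries 6 to 9, and Cd79a and Vpreb1 had no region in any library.

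EBF1 is a DNA-binding factor that opens chromatin and switches on B-lineage genes in lymphoid progenitors, downstream of interleukin-7 signalling and together with the E2A and FOXO1 factors. The Pax5 gene is among its targets. PAX5 then maintains B-cell identity and holds down genes of other lineages. Both genes are large, and the DNA that controls them is spread over introns and flanks as well as promoters. A peak called from 20000 cells can reflect wide opening in few cells or weak opening in many, and these cannot be told apart here.

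Windows of 201 bases, centred on the strongest peak summit, show the sequence at regions on which the results turn. They were read from the GRCm38 assembly (mm10) and are printed 5′ to 3′ on the strand of the gene. Capitals mark every match to the short motifs listed with the motif results. The first 3 windows carry the CLP and MPP4 patterns, and Ebf1 +280.1 kb is the region of the largely opposite pattern. Ebf1 -35.9 kb and Pax5 +5.9 kb are those called in the most libraries, 31 and 35.
Pax5 +85.5 kb, chr4:44624841-44625041, minus strand: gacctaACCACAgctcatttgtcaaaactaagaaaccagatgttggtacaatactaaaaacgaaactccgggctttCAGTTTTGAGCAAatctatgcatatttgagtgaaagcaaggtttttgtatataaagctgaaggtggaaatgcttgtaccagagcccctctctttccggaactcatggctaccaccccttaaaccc
Ebf1 +7.4 kb, chr11:44624708-44624908, plus strand: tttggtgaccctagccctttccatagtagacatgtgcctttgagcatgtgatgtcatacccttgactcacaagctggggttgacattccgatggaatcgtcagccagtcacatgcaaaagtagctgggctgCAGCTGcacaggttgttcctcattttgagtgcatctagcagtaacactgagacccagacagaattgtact
Ebf1 +275.9 kb, chr11:44893100-44893300, plus strand: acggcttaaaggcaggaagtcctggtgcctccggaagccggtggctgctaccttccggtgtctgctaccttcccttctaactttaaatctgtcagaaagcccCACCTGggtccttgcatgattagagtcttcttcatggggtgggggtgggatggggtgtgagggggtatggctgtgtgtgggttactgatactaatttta
Ebf1 +280.1 kb, chr11:44897316-44897516, plus strand: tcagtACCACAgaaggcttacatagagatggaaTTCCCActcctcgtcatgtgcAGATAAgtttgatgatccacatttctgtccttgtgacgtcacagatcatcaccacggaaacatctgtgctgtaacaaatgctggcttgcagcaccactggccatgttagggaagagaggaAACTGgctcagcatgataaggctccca
Ebf1 -35.9 kb, chr11:44581394-44581594, plus strand: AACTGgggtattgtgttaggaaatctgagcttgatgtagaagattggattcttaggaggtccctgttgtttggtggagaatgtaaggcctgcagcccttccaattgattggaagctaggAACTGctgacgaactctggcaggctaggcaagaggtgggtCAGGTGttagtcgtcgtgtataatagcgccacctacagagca
Pax5 +5.9 kb, chr4:44704461-44704661, minus strand: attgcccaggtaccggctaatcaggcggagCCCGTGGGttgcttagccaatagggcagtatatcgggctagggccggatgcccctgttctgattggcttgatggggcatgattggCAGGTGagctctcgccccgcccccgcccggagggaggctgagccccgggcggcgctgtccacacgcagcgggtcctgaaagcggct

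**Figure D1:**
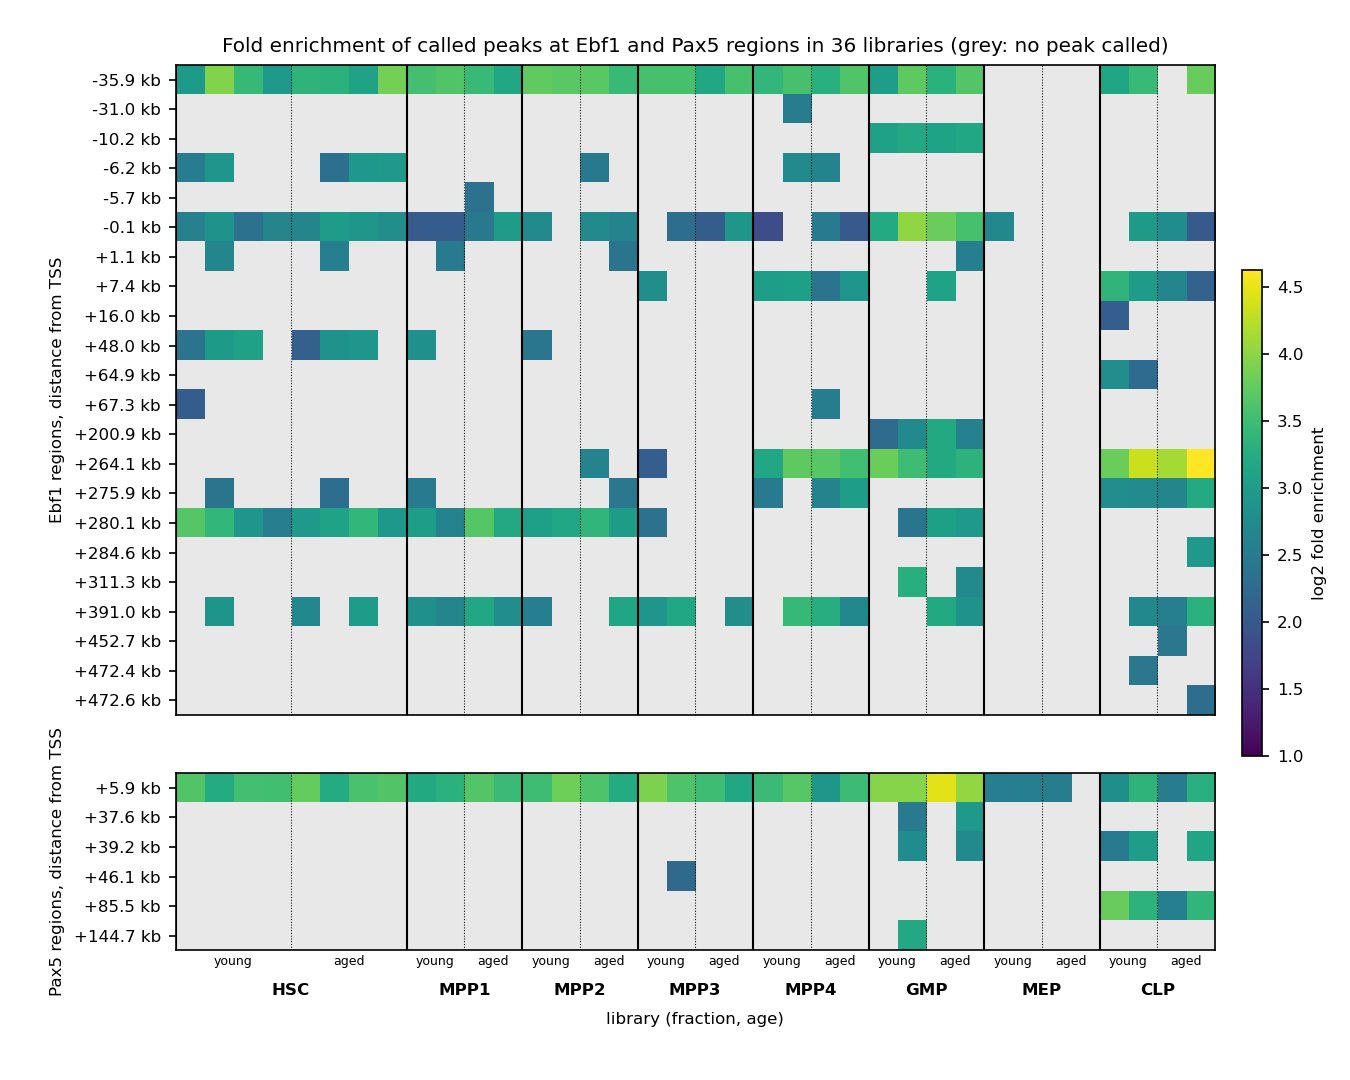
Each row is a region, named by its distance from the TSS, and each column a library, grouped by fraction and age. Colour gives the log2 fold enrichment of the called peak and grey means that no peak was called. Pax5 +85.5 kb is coloured in the 4 CLP libraries alone, and Pax5 +5.9 kb in 35 of 36 libraries.

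Pax5 was the gene of the pair with a region that passed the test for CLPs. The Pax5 +85.5 kb region (chr4:44624707-44625119, in intron 6 of the longest transcript) was called in 4 of 4 CLP libraries and in 0 of the 32 others. Its fold enrichment, the height of a peak over the local background, was 13.7 and 10.1 in young CLPs and 5.94 and 10.5 in aged CLPs. The summits fell within 85424 to 85467 bp of the TSS in all 4. The region passed Fisher's exact test of CLPs against the other fractions (adjusted p = 0.00352, Benjamini-Hochberg over all regions). Of all regions, 1.40% were called more often in CLPs by this test, and 494 regions (0.470%) showed the same pattern of 4 CLP libraries and no other. With a -log10 q of at least 10 the region kept 3 of 4 CLP calls and did not pass (adjusted p = 0.0638).

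None of the other 5 Pax5 regions passed that test. The nearest to it was Pax5 +39.2 kb (chr4:44671042-44671413, intron 5), called in 3 of 4 CLP libraries, with fold enrichments of 5.61 and 8.08 in young and 8.83 in aged CLPs, and in 2 of 4 GMP libraries with 6.75 and 6.61 (Fisher's exact test, adjusted p = 0.136). Among the peaks of their own libraries, the GMP calls ranked at percentiles 21.8 and 20.5, and the CLP calls ranked at percentiles 13.4, 45.0 and 50.6. When each library was held to an equal number of peaks, the 2 GMP calls were gone, the 3 CLP calls stayed, and the region passed (adjusted p = 0.0268).

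Close to the start of the gene, Pax5 carried an open region in every fraction, though not in every library. Pax5 +5.9 kb (chr4:44704253-44704776, intron 1) was called in 35 of 36 libraries, the exception being aged MEP replicate 2, and 6605 regions (6.29%) of the series were called in at least 35. Fold enrichment was 15.7 and 15.6 in young GMPs and 22.04 and 16.4 in aged GMPs, above every other library. HSC values had a lowest of 9.37, a median of 11.8 and a highest of 13.7. CLP values were 6.98 and 10.2 in young and 5.73 and 9.82 in aged libraries, and the 3 MEP values ran from 5.75 to 5.92. By fold enrichment CLPs, the lymphoid fraction, thus lay below all GMP libraries and overlapped HSCs. Ranked within each library, the GMP peaks stood at percentiles 74.9 and 74.4 in young and 90.0 and 77.4 in aged libraries. Young MPP3 replicate 1 stood at 89.3, young MPP2 replicate 2 at 87.3 and aged HSC replicate 1 at 85.0. By rank, GMPs thus did not lie above every other library, though such ranks depend on the length of the list. No region covered the annotated Pax5 TSSs of the GENCODE basic set (44710408 to 44710487) in any library, whereas the comprehensive set places the start of a further Pax5 protein-coding transcript at 44704006, beside this region on its downstream side.

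The remaining 3 Pax5 regions were rare. Pax5 +37.6 kb (intron 5) was called in 2 of 4 GMP libraries and nowhere else, which passed the test for GMPs (adjusted p = 0.0351). Pax5 +46.1 kb was called in 1 MPP3 library and Pax5 +144.7 kb in 1 GMP library. Of all regions, 27.6% were called more often in GMPs, so 1 Pax5 region of 6 is below that share.

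**Figure D2:**
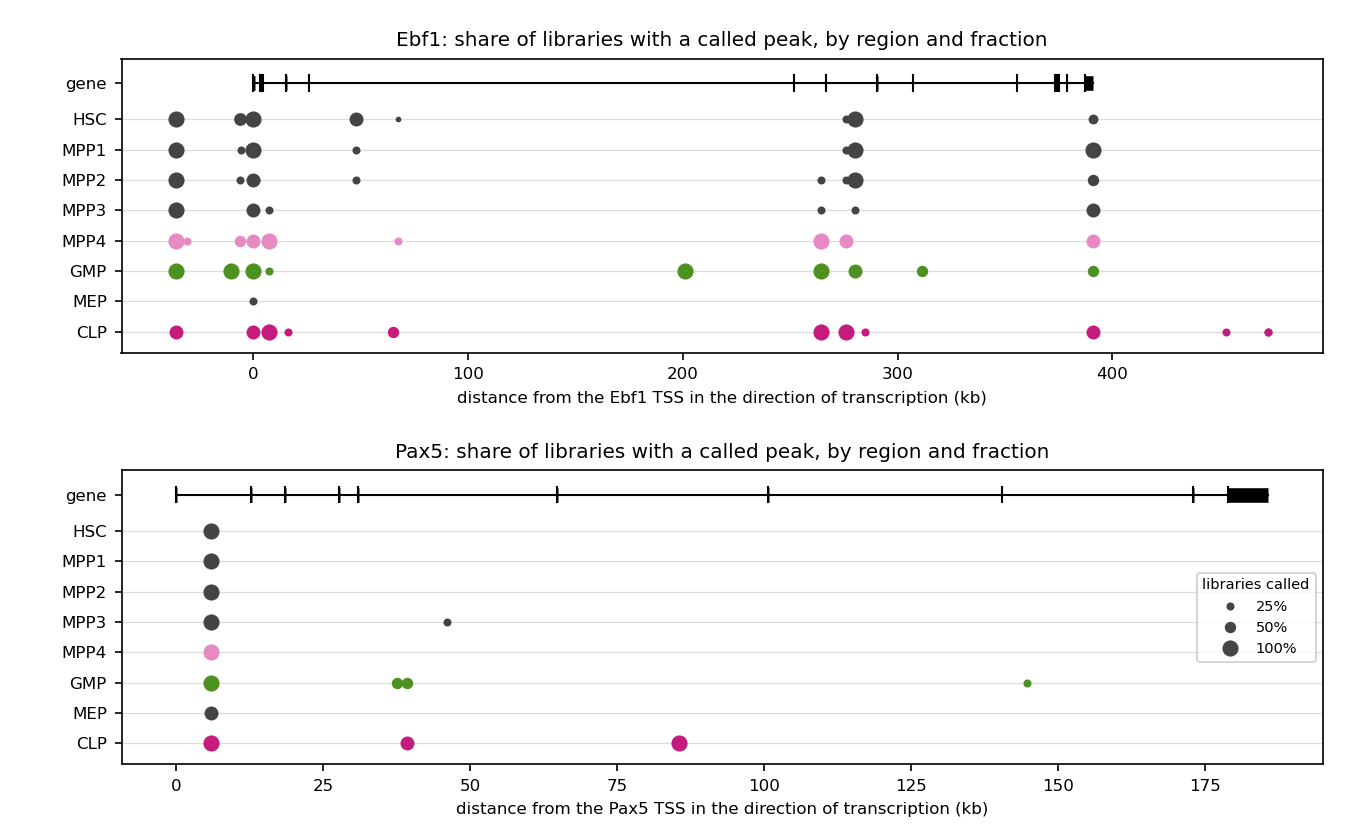
Circles show, for each region and fraction, the share of libraries with a called peak by their area, against distance from the TSS in kb. The black bar is the longest transcript with its exons as ticks. Ebf1 circles at +7.4 and +264.1 kb are full in MPP4 and CLPs, with +264.1 kb also full in GMPs, and those at +280.1 kb are full in HSCs, MPP1 and MPP2.

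No Ebf1 region passed the test for CLPs (0 of 22, beside 1.40% of all regions), and 0 were called less often in CLPs, beside 0.0838% of all regions. Yet 6 of the 22 were called in CLP libraries and in no other fraction, each in 1 or 2 of the 4 libraries, beside 3.17% of all regions with calls in CLPs alone. Its introns also held regions that CLPs shared with MPP4. Ebf1 +7.4 kb (chr11:44624561-44624961, intron 4) was called in 8 of 8 MPP4 and CLP libraries and in 2 of the other 28. Fold enrichment was 8.09 and 8.24 in young MPP4, 5.25 and 7.50 in aged MPP4, 10.4 and 8.01 in young CLPs and 6.37 and 4.40 in aged CLPs. The calls elsewhere were 6.90 in 1 MPP3 library and 8.57 in 1 GMP library. HSCs, MPP1, MPP2 and MEPs had none. Across the series, 94 regions (0.0895%) were called in all MPP4 and CLP libraries and in at most 2 others. This grouping of MPP4 with CLPs was made after the calls were seen, so it is given as a count with no test. Against all other libraries, CLPs alone did not pass at this region (adjusted p = 0.103). With equal numbers of peaks, 3 MPP4, 3 CLP and 1 MPP3 calls were left.

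The tallest Ebf1 peaks in CLPs lay in intron 7. Ebf1 +264.1 kb was called in all 12 libraries of MPP4, GMPs and CLPs, in 1 MPP2 library and 1 MPP3 library, and in none of HSCs, MPP1 or MEPs. Fold enrichment in CLPs was 13.9 and 20.1 in young and 17.6 and 24.7 in aged libraries. It was 8.89 and 13.2 in young MPP4 and 12.9 and 11.6 in aged MPP4. In GMPs it was 13.99 and 11.3 in young and 9.22 and 10.2 in aged libraries, so that only 1 GMP value reached into the range of CLPs. Ranked within each library, the peak stood at percentiles 86.0 to 99.2 in CLPs, 52.3 to 83.3 in MPP4 and 42.2 to 67.7 in GMPs, with no overlap between CLPs and the other 2 fractions, but the GMP lists were the longer ones and such ranks depend on the length of the list. In the series 279 regions (0.266%) were called in all libraries of these 3 fractions and in at most 2 others. With equal numbers of peaks, MPP4 and CLPs kept all 8 calls and GMPs kept 1 of 4.

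Intron 8 held a neighbouring pair of regions with largely opposite patterns. Ebf1 +275.9 kb (chr11:44892907-44893529) was called in 4 of 4 CLP libraries, with fold enrichments of 6.85 and 6.75 in young and 6.35 and 9.28 in aged CLPs. It was called in 3 of 4 MPP4 libraries at 5.61, 6.14 and 8.09, and in 4 of the other 28 libraries at 4.96 to 5.58. Those 4 were 2 HSC libraries, 1 MPP1 library and 1 MPP2 library, from the fractions that had the neighbouring region called throughout. CLPs did not pass the test here (adjusted p = 0.136) but did so with equal numbers of peaks (adjusted p = 0.0268), when calls outside CLPs fell to 2 in MPP4 and 1 in MPP2.

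Ebf1 +280.1 kb (chr11:44897142-44897768) was called in all 16 libraries of HSCs, MPP1 and MPP2, in 1 of 4 MPP3 and 3 of 4 GMP libraries, and in 0 of 12 libraries of MPP4, MEPs and CLPs. Young HSCs had fold enrichments of 12.7, 10.5, 7.44 and 5.87, and aged HSCs 7.80, 8.49, 10.6 and 7.65, so the ages overlapped. MPP1 values ran from 6.16 to 12.7 and MPP2 values from 8 to 10.4. In the whole series 307 regions (0.292%) were called in all HSC, MPP1 and MPP2 libraries and in no MPP4 or CLP library. Tested 1 fraction at a time, HSCs did not pass (adjusted p = 0.119), nor did CLPs (adjusted p = 0.347).

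**Figure D3:**
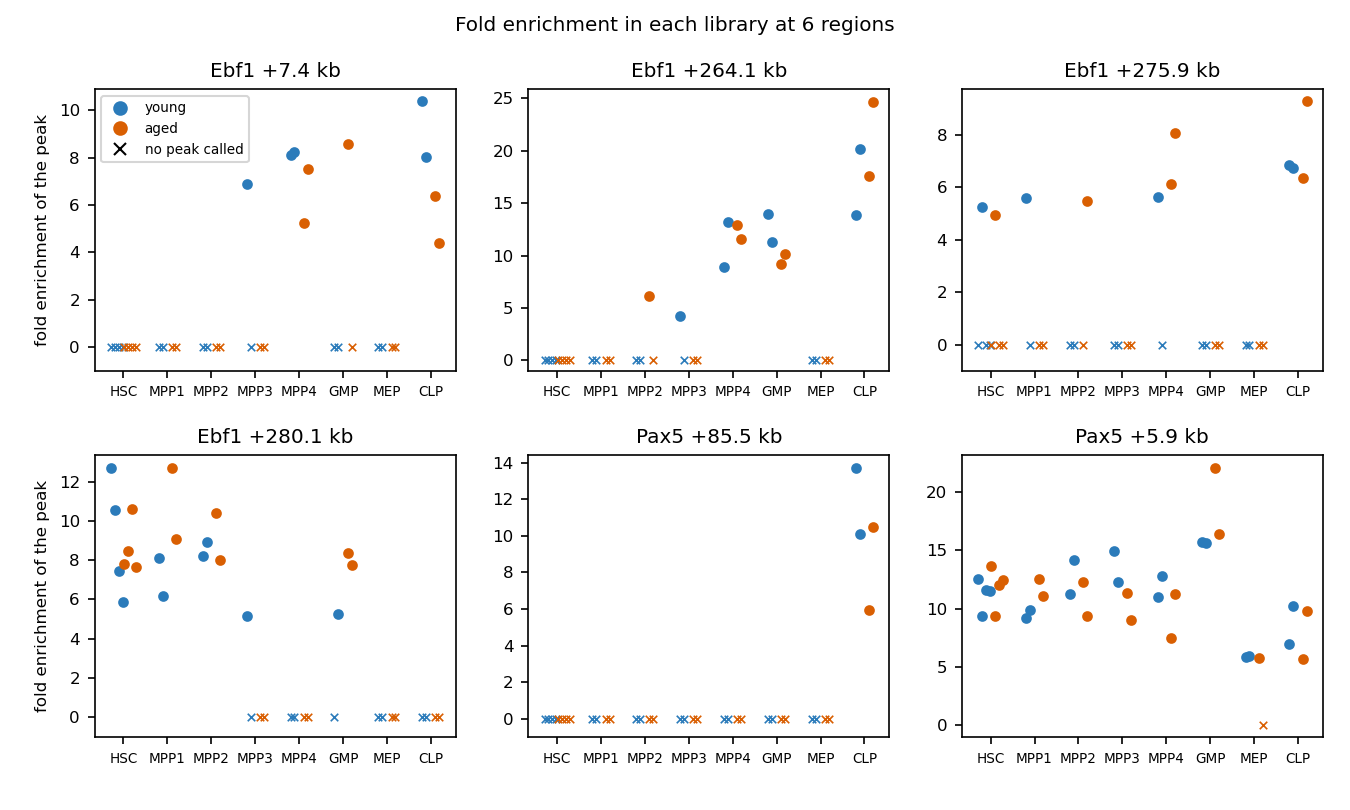
Each point is the fold enrichment of a called peak in 1 library, by fraction and age, and crosses at 0 mark libraries with no call. CLP points at Ebf1 +264.1 kb lie at 13.9 to 24.7, and Ebf1 +280.1 kb has only crosses in MPP4, MEPs and CLPs.

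A further intronic region went with HSCs. Ebf1 +48.0 kb (chr11:44665164-44665541, intron 6) was called in 6 of 8 HSC libraries, 1 MPP1 library and 1 MPP2 library, and it passed the test for HSCs (adjusted p = 0.0319, Fisher's exact test). Young HSC values were 5.24, 7.86 and 8.43 and aged HSC values 4.30, 7.30 and 7.49, with no call in replicate 4 of either age. Of all regions, 1.25% were called more often in HSCs. Leaving out any 1 of the 6 called HSC libraries ended the call (adjusted p = 0.0647 to 0.0800), as did equal numbers of peaks (adjusted p = 0.129).

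The Ebf1 promoter was open well before the lymphoid stage. Ebf1 -0.1 kb (chr11:44616975-44617423), which covers the TSS at 44617317, was called in 29 libraries, among them 8 of 8 HSC, 4 of 4 MPP1 and 4 of 4 GMP libraries. GMPs had the highest values, 9.32 and 16.2 in young and 13.9 and 11.9 in aged libraries, all above those of any other fraction. HSC values ran from 5.11 to 7.96. Summits lay at -101 to -84 bp from the TSS in GMPs and at -238 to -185 bp in HSCs, so these heights come from different places in the region. CLP values were 7.90 in 1 young library and 6.76 and 4.07 in the aged libraries, with no call in young CLP replicate 1. The promoter was thus not more often called in CLPs (3 of 4) than in HSCs. With equal numbers of peaks, 8 of 8 HSC calls were left, beside 2 of 4 GMP calls and 2 CLP calls. Ebf1 +1.1 kb (intron 1) was called in 5 libraries of HSCs, MPP1, MPP2 and GMPs at 5.27 to 6.32.

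Upstream of the gene, Ebf1 -35.9 kb (chr11:44581056-44581683) was called in all 28 libraries of HSCs, MPP1 to MPP4 and GMPs, in 3 of 4 CLP libraries and in 0 of 4 MEP libraries. Fold enrichment ran from 7.82 to 15.4 in HSCs and from 8.79 to 13.7 in the CLP libraries with a call. MEPs passed the test for fewer calls (adjusted p = 0.00189), as did 10.6% of all regions, and the MEP lists held the fewest peaks. The MEP call ended under a required cover of 50% (adjusted p = 0.176), and equal numbers of peaks left 0 of 4 GMP calls. In all, the 4 MEP libraries called 1 of the 22 Ebf1 regions, the promoter, in 1 library. Of all regions, MEP libraries had 8.85% to 10.2% called.

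Some Ebf1 regions were called in GMPs alone. Ebf1 -10.2 kb (chr11:44607012-44607189) was called in 4 of 4 GMP libraries, with fold enrichments of 8.39, 9.07, 8.57 and 9.02, and in no other library. Ebf1 +200.9 kb (chr11:44818104-44818301, intron 6) had the same calls at 4.79, 6.65, 9.18 and 6.01. Both passed (adjusted p = 0.000193 each), and Ebf1 +311.3 kb passed on 2 calls (adjusted p = 0.0351). These 3 of 22 compare with 27.6% of all regions called more often in GMPs, and the 2 called in all 4 GMP libraries alone with 9250 regions (8.81%) of the series, so neither count stands out from the background. With equal numbers of peaks none of the 3 was called in any GMP library, nor was Pax5 +37.6 kb. Without young GMP replicate 2, or without aged GMP replicate 2, Ebf1 +311.3 kb and Pax5 +37.6 kb lost their calls (adjusted p = 0.221 to 0.230).

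At the 3′ end of the gene, Ebf1 +391.0 kb (chr11:45008086-45008541) was called in 20 libraries of every fraction but MEPs, at 5.91 to 10.7. CLP values were 6.47 in 1 young library and 5.94 and 9.90 in the aged libraries, and HSC values were 7.33 in 1 young library and 6.45 and 8.02 in 2 aged libraries. CLPs did not pass the test (adjusted p = 1). The last 10 Ebf1 regions were called in 8 libraries or fewer. Ebf1 -6.2 kb was called in 5 of 8 HSC libraries, 1 MPP2 library and 2 MPP4 libraries (HSCs, adjusted p = 0.146). Ebf1 +64.9 kb was called in both young CLP libraries, at 6.85 and 4.79, and in no other library. Ebf1 +67.3 kb was called in 1 HSC and 1 MPP4 library, Ebf1 -31.0 kb in 1 MPP4 library and Ebf1 -5.7 kb in 1 MPP1 library. The other five regions, at +16, +284.6, +452.7, +472.4 and +472.6 kb, were each called in a single CLP library at 4.26 to 7.70. Of all regions, 1.69% were called in exactly 1 CLP library and in no other, and 18.4% in a single library of any fraction.

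Taking each gene as a whole, the number of regions called per library was compared between CLPs and the other fractions. CLP libraries had 6 and 8 Ebf1 regions in young and 6 and 8 in aged mice. GMPs had 5, 7, 8 and 9, MPP4 5, 6, 8 and 6, HSCs 3 to 8, MPP1 4 to 6, MPP2 2 to 6, MPP3 2 to 5 and MEPs 0 to 1. CLPs exceeded the other 32 libraries by 2.34 Ebf1 regions on average, within the spread of the libraries (exact permutation test over libraries, two-sided, adjusted p = 0.146 over 6 such comparisons). They differed by 0.75 from MPP4 (exact permutation test, adjusted p = 0.926) and by -0.25 from GMPs (exact permutation test, adjusted p = 1). The difference from GMPs turned positive without young CLP replicate 1 (0.0833), aged CLP replicate 1 (0.0833) or aged GMP replicate 2 (0.3333), and that from MPP4 turned to -0.5 with a -log10 q of at least 10 or with regions within 100 kb.

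Pax5 counts separated CLPs more clearly. CLP libraries had 3 and 3 Pax5 regions in young and 2 and 3 in aged mice, and the fractions other than GMPs had 0 to 2. CLPs exceeded the other libraries by 1.59 regions (exact permutation test, adjusted p = 0.0201). These counts hold the calls at Pax5 +85.5 kb and +39.2 kb that were tested by region above, so they are not a separate result. Pax5 +85.5 kb is among the regions only through its CLP calls, and the share of other genes with such an excess is not given. The difference from MPP4, whose libraries had 1 each, was 1.75 (exact permutation test, p = 0.0286, the smallest that 4 against 4 libraries can give, and adjusted p = 0.0857). GMPs had 1 and 4 in young and 1 and 3 in aged mice, and the difference of 0.5 was within their spread (exact permutation test, adjusted p = 0.926). Leaving out young CLP replicate 1, young CLP replicate 2 or aged CLP replicate 2 ended the call against the other fractions (adjusted p = 0.0857), and so did requiring peaks to cover 50% of the region (difference 0.625, adjusted p = 0.588) or a -log10 q of at least 10 (difference 0.844, adjusted p = 0.162).

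The fractions also differed in the share of all regions called. GMP libraries had 48.4% to 58.5% of all 105005 regions called, against 22.7% to 40.9% of the Ebf1 regions, and CLP libraries had 25.05% to 31.7% of all regions and 27.3% to 36.4% of the Ebf1 regions. When each library was held to its 27087 peaks of highest -log10 q (MEPs, with fewer, keeping all), GMPs were left with 1, 1, 1 and 0 Ebf1 regions and CLPs with 5, 5, 6 and 5. The difference from GMPs then turned from -0.25 to 4.5 (exact permutation test, adjusted p = 0.0343), and CLPs exceeded the other fractions by 2.28 Ebf1 regions (exact permutation test, adjusted p = 0.0343). For Pax5, GMPs had 1 region in each library under this setting and CLPs kept 3, 3, 2 and 3. With 52576 to 63288 peaks in GMP lists and 27117 to 34205 in CLP lists, the setting removed more peaks from GMPs. A fall in GMP counts is thus partly built into it, and the share of all regions that GMPs kept is not given.

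**Figure D4:**
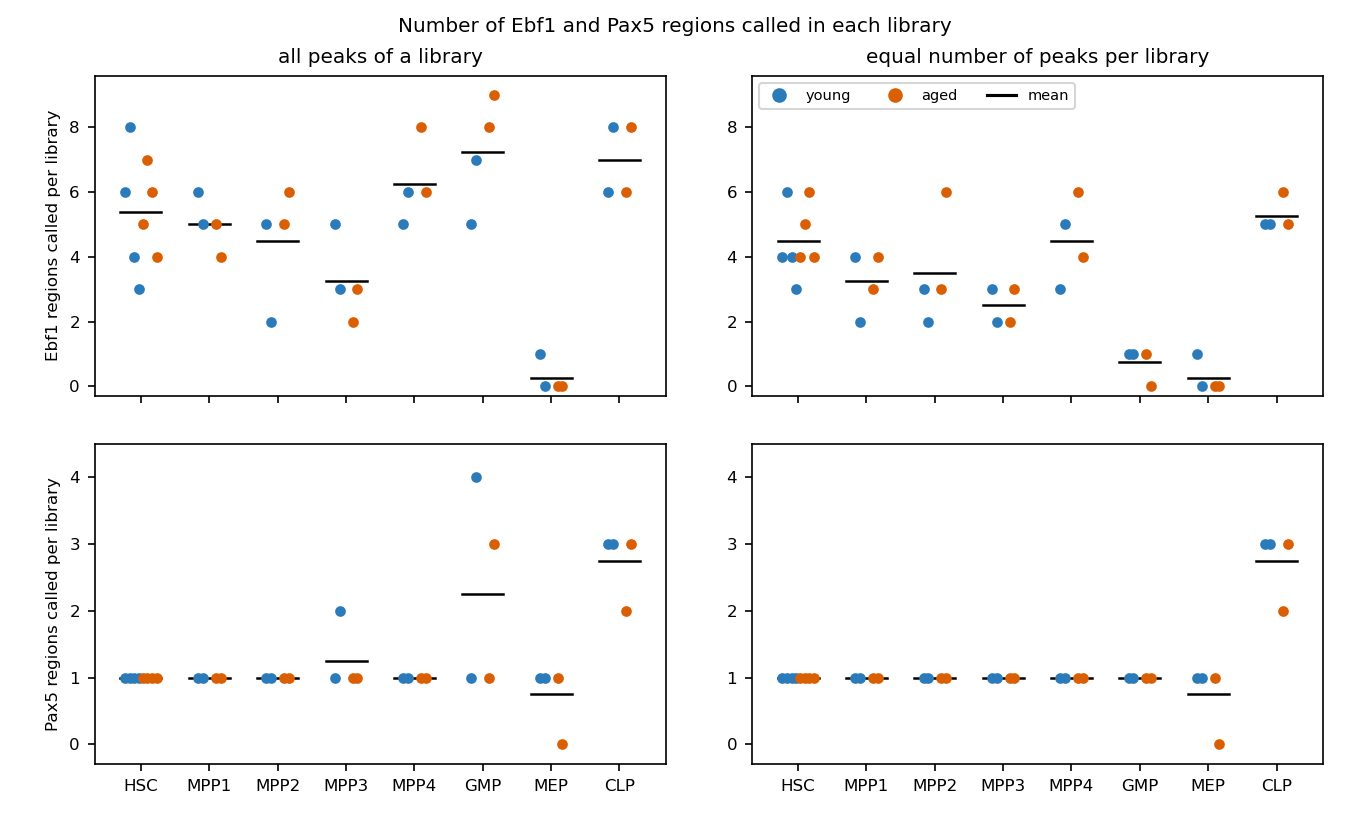
Points give the number of Ebf1 regions (of 22, upper panels) and Pax5 regions (of 6, lower panels) called in each library, with the mean of each fraction as a line. The left panels use all peaks and the right panels the same number of peaks per library. GMPs fall from 5 to 9 Ebf1 regions on the left to 0 to 1 on the right, while CLPs stay at 5 or more.

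Age was compared within fractions, the question for which the study was designed. The word "new", whose meaning is not given, stands in the peak names of 9 of 18 aged and 2 of 18 young libraries. In MPP3 and MPP4 both aged libraries and no young library carry it, so that age and whatever it marks cannot be told apart there. None of the 28 regions passed the test of calls in aged against young libraries (exact conditional test with fractions as strata, adjusted p = 1 for every member). Of all regions 0% passed, and 1169 of 105005 had an unadjusted p under 0.05, with 0 of the 28 members among them. The smallest member p was 0.277, at Ebf1 +391.0 kb, called in 8 young and 12 aged libraries. Many members could not have passed. A region called in, or missing from, a single library has a fixed p, as has Pax5 +85.5 kb, called in every CLP library and no other. Ebf1 +64.9 kb was called in both young CLP libraries and no aged one, and even this gave a p above 0.05. At such regions the test cannot tell whether calls differ with age. Per library, Ebf1 regions changed by 0.406 with age over all fractions (exact permutation of ages within fractions, p = 0.411). In HSCs the means were 5.25 in young and 5.50 in aged libraries (exact permutation test, p = 1), and the difference turned negative without young replicate 3 (-0.167), young replicate 4 (-0.5) or aged replicate 2 (-0.25). Pax5 regions changed by -0.25 over all fractions (exact permutation test, p = 0.375), and every HSC library of either age had 1.

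The height of the peaks was tested where a region was called in every library of a fraction, which gave 29 pairs of a region and a fraction. None passed (limma on log2 fold enrichment, smallest adjusted p = 0.699), beside 0% of the 174444 tests made in the same 7 fractions. At an unadjusted p under 0.05 there were 3 pairs of 29, beside 5.45% of all tests. At Ebf1 +7.4 kb in CLPs, the aged values (6.37 and 4.40) were the lower ones and the young values (10.4 and 8.01) the higher, with -0.78 ± 0.26 (SE) between the ages on the log2 scale (limma fitted across all regions, adjusted p = 1.00). The other pairs were in MPP1, where aged exceeded young libraries by 0.67 ± 0.26 at the Ebf1 promoter and by 0.60 ± 0.27 at Ebf1 +280.1 kb (limma, adjusted p = 1.00 for both). At the promoter, MPP1 summits lay at -92 and -112 bp from the TSS in young and at -202 and -229 bp in aged libraries. The heights compared there thus come from different places in the region. Pax5 +85.5 kb in CLPs differed by -0.58 ± 0.29 (limma, adjusted p = 1.00), and the ages overlapped. Scaled to the regions called in all libraries, this region differed by -0.615 ± 0.254 in CLPs (limma, unadjusted p = 0.0351, adjusted p = 0.676). CLPs then had 2 pairs with an unadjusted p under 0.05. In HSCs, with 4 libraries per age, the 4 regions differed by -0.03 to 0.23. These values moved with the libraries used. At Ebf1 +280.1 kb, -0.03 became -0.51 from replicates 1 and 2 alone (limma, adjusted p = 0.437), 0.45 from replicates 3 and 4 alone (limma, adjusted p = 0.456) and -0.22 to 0.15 without 1 library each. From replicates 1 and 2 alone and from 3 and 4 alone, the values were -0.12 and 0.28 at Ebf1 -35.9 kb and 0.11 and 0.35 at the promoter.

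**Figure D5:**
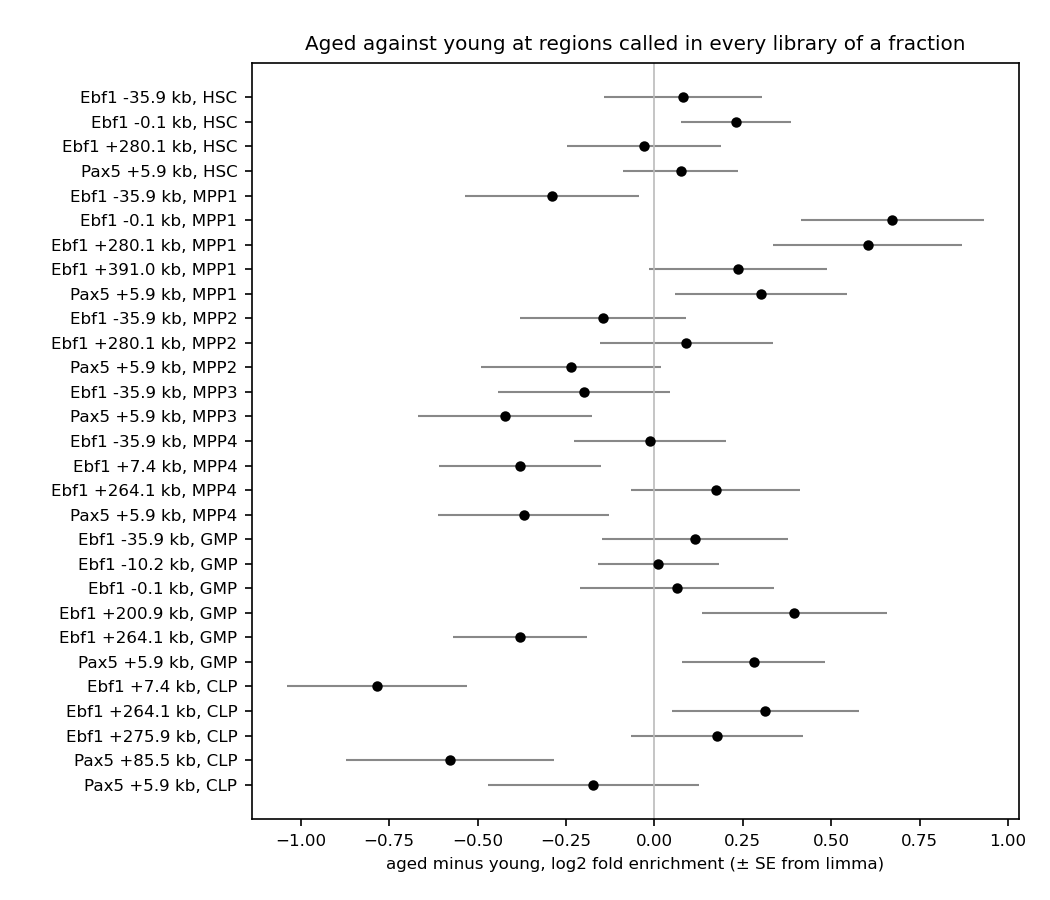
Points give the aged minus young difference in log2 fold enrichment, with the SE from limma as bars, for the 29 pairs of a region and a fraction. Most bars reach 0 or lie near it, and the farthest point is Ebf1 +7.4 kb in CLPs at -0.78.

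Motifs of factors that act on B-lineage genes were searched within 100 bp of the strongest summit on both strands. The E-box letters CAGCTG, and likewise CAGGTG, bound by E2A and related factors, stood in 11 of 28 windows, beside 24.4% of windows at all regions. Among these windows were Ebf1 +7.4 kb and +275.9 kb, with 1 match each. Others were Ebf1 +200.9 kb and +311.3 kb, called in GMPs alone, and Ebf1 +64.9 kb, +284.6 kb and +472.6 kb, called in 1 or 2 CLP libraries alone. The letters also stood in Ebf1 -5.7 kb, called in 1 MPP1 library, and in the widely called Ebf1 -35.9 kb and Pax5 +5.9 kb. Neither the Ebf1 +280.1 kb nor the Pax5 +85.5 kb window held them. Ebf1 +280.1 kb held 1 match each to the RUNX letters TGTGGT (in 25.5% of all windows), to AGATAA for the GATA factors (10.2%), to TGGGAA for the IKZF family (17.3%) and to AACTG for MYB (41.3%). Pax5 +85.5 kb held matches to RUNX, MYB and CEBP (TTGCNNCAA or TTGCNCAA), the MYB and CEBP letters next to each other, and 6.49% of all windows held the CEBP letters. The letters CCCNNGGG, the centre of the EBF1 site, were in 3 of 22 Ebf1 and 3 of 6 Pax5 windows, beside 7.09% of all windows. The Pax5 windows were +5.9 kb, +39.2 kb and +46.1 kb, the last called in 1 MPP3 library. Pax5 +5.9 kb and +46.1 kb are rich in G and C (66.2% and 67.7%, beside a median of 49.8% over all windows). The fixed letters of CCCNNGGG are all G or C. FOXO (TGTTTAC) and STAT (TTCNNNGAA) letters were in 0 of 28 windows, beside 2.46% and 5.71% of all. PU.1 (GAGGAAG) was in 4 of 28 beside 19.5%, and IRF (GAAANNGAA) in 1 of 28 beside 8.25%. A match describes the letters and not a bound site.

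A list of 46 other genes linked to the B lineage, 5 of them genes that PAX5 holds down, had 633 regions at 40 of the genes, of which 14 regions (2.21%, beside 1.40% of all regions) were called more often in CLPs and 1 less often. The median difference in the share of libraries called was -3.12 percentage points, the same as over all regions. Among the regulators, Foxo1, which acts with EBF1, had a region at +128.0 kb called in 4 of 4 CLP libraries and no other. Tcf12, an E-box factor, had 2 regions that passed, of which the one at +14.4 kb was also called in 2 GMP libraries, and Bach2, Lef1, Gfi1, Erg and Zfp521 had 1 or 2 each. Dntt, which adds bases during antigen receptor assembly, Cd24a, Cd22 and Ly6d had 1 each. Regions at Ikzf1, Spi1, Myb, Runx1, Il7r and Flt3 did not pass, nor did the 39 regions at 5 genes that PAX5 holds down in B cells. The test for CLPs also passed at 5 of 72 regions of plasmacytoid dendritic cell markers (2 at Siglech and 1 each at Irf8, Tcf4 and Bst2), 1 of 72 of T and innate lymphoid markers (Gata3) and 2 of 99 of HSC markers (Meis1 and Mecom). CLP libraries had 19 to 27 of those 72 dendritic regions called, HSC libraries 17 to 27 and GMP libraries 30 to 40. The part of other cells in the CLP calls was not tested.

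Related and neighbouring genes were compared with the pair. Of the 11 paralogs, Ebf2 had a region at +1.7 kb called in 4 of 4 CLP libraries and no other (adjusted p = 0.00352), and Ebf3 had 1 at -21.9 kb called in 3 of 4 (adjusted p = 0.0401). Ebf4 and the 8 Pax genes measured had none. The protein-coding neighbours Rnf145 and Clint1 beside Ebf1 and Melk and Zcchc7 beside Pax5 had 43 regions, of which 0 passed for CLPs. Over the 36 libraries, the number of regions called at Ebf1 was most like that of Ankrd33b (Pearson's r = 0.85), Otud1 (0.85), Irf4 (0.85), Fyn (0.84) and Mtdh (0.83). Pax5 was most like Nat10 (0.83), Slc35c2 (0.82), Spata48 (0.80), Efcab2 (0.79) and Strbp (0.78), and the r between Ebf1 and Pax5 was 0.48. The likeness was computed for 7324 genes on the same 36 libraries, and no p is given. These libraries had unequal numbers of peaks, and the effect of this on r was not tested.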

How the data were processed

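Per the labels and the study's methods, nuclei of 20000 sorted cells per library were tagmented and sequenced, the authors aligned reads to mm10 with Bowtie2, brought libraries to an equal number of reads and called peaks in each library with MACS2 2.2.6. The deposited peak lists give for each peak a fold enrichment (a ratio to local background), a -log10 p-value and a -log10 q-value, and a score that lay within 1 of 10 times the -log10 q in 100% of entries as deposited by the authors. The lowest -log10 q was 3.00. Reads per peak were not used here, so precision rests on the number of libraries.

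The members and gene lists were chosen with earlier results of these data known. Genes were taken from GENCODE vM21, and 1204561 distinct peaks were merged. Calls per region were compared by Fisher's exact test and, for age, by an exact conditional test with fractions as strata, both with Benjamini-Hochberg adjustment over 105005 regions and a threshold of 0.05. Counts per library were compared by two-sided exact permutation tests. Fold enrichment was compared on the log2 scale with limma 3.58.1 in R 4.3.3, and log2 values were computed from the deposited fold enrichment with no pseudocount. The other steps used Python 3.11.15 with numpy 2.4.6, scipy 1.17.1, pandas 2.3.3 and matplotlib 3.10.9. Both tests across regions were tested on simulated data. All 28 members were accounted for, and those described in full overlapped a TSS, were called in at least 3 CLP libraries or passed a test. Ebf1 +280.1 kb was outside this rule and was chosen after its values were seen. From the lists, genes with a region that passed the test for CLPs were named, with 6 well-known B-lineage genes that had none, chosen after their values were seen, and the 5 genes most like each member among those with at least 5 regions. Alternatives were a -log10 q of at least 10, peaks covering 50% of a region, equal numbers of peaks, TSSs of all gene types, regions within 100 kb, a minimum of 4 calls, a replicate block and leaving out each library. For age, fold enrichment was also scaled to the regions called in all libraries. The 180 regions on unplaced or alternative sequences had no motif search. Sequences were printed for regions called in every CLP library or in every HSC, MPP1 and MPP2 library, except 1 window whose sequence is not reported here.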

Additional observations from a re-analysis of the deposited data

Results flagged for a closer look

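At Pax5 +5.9 kb, the difference between ages ran in opposite directions in different fractions. Fold enrichment was 15.7 and 15.6 in young GMPs and 22.04 and 16.4 in aged GMPs, a log2 difference of 0.28, and 9.24 and 9.93 in young MPP1 and 12.6 and 11.1 in aged MPP1, a log2 difference of 0.30. In MPP3 the young libraries had 14.98 and 12.3 and the aged libraries 11.3 and 9.05, a log2 difference of -0.42. Every aged library lay above every young one in GMPs and MPP1 and below every young one in MPP3. None of the 3 passed (limma, adjusted p = 0.926 in GMPs, 1.00 in MPP1 and 0.995 in MPP3), and the difference between fractions was not tested. The other fractions gave log2 differences of 0.07 in HSCs, -0.24 in MPP2, -0.37 in MPP4 and -0.17 in CLPs. Scaled to the regions called in all libraries, the differences were 0.21 in GMPs, 0.26 in MPP1 and -0.29 in MPP3. The others were then 0.08 in HSCs, -0.26 in MPP2, -0.22 in MPP4 and -0.21 in CLPs. In MPP3 and MPP4 both aged libraries and no young library have "new" in their peak names, so age and whatever this marks cannot be told apart.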

How the results depend on the processing

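With a -log10 q of at least 10, the Pax5 excess of CLPs over the other fractions was 0.844, the Ebf1 difference from MPP4 turned to -0.5 and 0 Pax5 regions were called more often in CLPs. With peaks covering 50% of a region, the Pax5 excess was 0.625, the Ebf1 difference from GMPs turned to 1 and that of Pax5 to -0.5. With equal numbers of peaks, CLPs passed against the other fractions for Ebf1 (2.28), against MPP4 for Pax5 (1.75) and against GMPs for Ebf1 (4.5) and Pax5 (1.75), with 1 Ebf1 and 2 Pax5 regions called more often in CLPs. TSSs of all gene types turned the Ebf1 difference from GMPs to 0.5 and left Pax5 with no region, and regions within 100 kb turned the Ebf1 difference from MPP4 to -0.5. HSC replicates 1 and 2 alone gave an Ebf1 difference with age of -1, and replicates 3 and 4 alone 1.5. The cause of these changes was not tested.

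Leaving out each library in turn gave an Ebf1 excess of CLPs of 2.01 to 2.68 over the other fractions, 0.3333 to 1.33 over MPP4 and -1 to 0.3333 over GMPs, and a Pax5 excess of 1.51 to 1.84, 1.67 to 2 and 0.0833 to 1.08. The differences with age ran from 0.219 to 0.594 for Ebf1, from -0.5 to 1.17 for Ebf1 in HSCs and from -0.438 to -0.0625 for Pax5. Same-numbered replicates correlated at -0.0976 to 0.241, so the numbers were not taken as pairs. With a replicate block, CLPs differed from MPP4 by 0.75 for Ebf1 (exact permutation test, p = 0.625) and 1.75 for Pax5 (exact permutation test, p = 0.125). For CLPs against MPP4, 0.125 is the smallest p that this blocked permutation test can give. The age difference with the block was 0.389 for Ebf1 (exact permutation test, p = 0.442) and -0.222 for Pax5 (exact permutation test, p = 0.125). Without the MEP libraries, chosen after seeing the data, the excess of CLPs was 1.71 for Ebf1 (adjusted p = 0.211) and 1.54 for Pax5 (adjusted p = 0.0299, exact permutation tests). Over all regions, 1469 were called more often in CLPs, 394 with a -log10 q of at least 10, 2414 with 50% cover and 2658 with equal numbers of peaks. No member passed the tests for age under any alternative run.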
